A study of Schmidtea mediterranea with 10 samples.

Results

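A set of 76 genes, of 36035 measured, was low in sorted planarian stem cells and higher in sorted epidermal progenitors than in the cells left by the progenitor sort. Membership was set on CPM, the count of a gene scaled to the library's total of counts assigned to genes. The measure called A is the log2 ratio of mean CPM + 1 in agat-positive over agat-negative cells, and P is the log2 ratio of CPM + 1 in piwi-1-positive over piwi-1-negative cells. A gene belonged to the set with A of 0.3 or more (at least 1.23-fold), P of -1 or less, and a mean of at least 10 CPM both over the agat libraries and over the piwi-1 libraries. Both contrasts thus chose the genes, so all values of A and P, and all counts made from the same libraries, describe the set and test nothing. Both data files list genes by ID without a name, so no function is given for a member, and no sequence of a member is shown.

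Planarians renew all tissues from neoblasts, dividing stem cells that carry transcripts of piwi-1, a gene of the PIWI family that acts with small RNAs in keeping the stem cell genome. Descendants of neoblasts stop dividing and pass through progenitor states on the way to each tissue. In the epidermal lineage, late progenitors carry agat transcripts, which encode relatives of L-arginine:glycine amidinotransferase, an enzyme of creatine synthesis. These progenitors move outward and replace the cells of the epidermis.

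All cells came from uninjured wild-type worms of 1 clonal asexual strain of Schmidtea mediterranea (CIW-4), starved for at least 2 weeks, with no age stated in the labels. About 160 worms were pooled, split between labels, dissociated in the fixative ACME and hybridized with probes that make cells fluoresce where a transcript is present. Pooled probes against agat-1, agat-2 and agat-3 gave 4 agat-positive and 4 agat-negative libraries, and a probe against piwi-1 gave 1 positive and 1 negative library. Each negative gate holds the unlabelled cells of the whole worm. Libraries held 35081410 to 51821158 assigned counts. agat-1 lay at 234 to 1627 CPM in the agat-positive and at 14.7 to 94.6 CPM in the agat-negative gate. piwi-1 lay at 1267 CPM in piwi-1-positive and 199.9 CPM in piwi-1-negative cells. Each sorted transcript was thus higher in its own positive gate, but was not absent elsewhere. In the piwi-1 pair agat-1 lay at 128 CPM in positive and 81.2 CPM in negative cells, and P was 0.42 for agat-2 and 0.50 for agat-3. piwi-1 lay at 180 to 393 CPM in agat-positive and 398 to 573 CPM in agat-negative libraries. Markers of other cell types could not be looked up without gene names. In libraries of many cells, fewer cells of a type and less RNA per cell cannot be told apart.

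The limits of 0.3 on A and -1 on P made the set shallow in the agat contrast and deeper in the piwi-1 contrast. A ran from 0.30 to 2.26 with a median of 0.47, and 11 of the 76 genes had A of 1 or more. P ran from -4.27 to -1.01 with a median of -1.23, and 23 genes had P of -1.5 or less. Over the 7569 genes past both level minimums the medians were -0.11 for A and -0.12 for P. At the limits, the nearest members had A of 0.302 and 0.307 and P of -1.01 and -1.02, and the nearest genes outside had A of 0.297 and 0.289 and P of -0.997 and -0.992. The limits therefore cut through a continuous spread of values.

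With all libraries and both level minimums, the overlap of both criteria was about as large as their separate shares. Of the 7569 genes, 756 (9.99%) met the limit on P and 710 (9.38%) met that on A. The 76 genes were 10.1% of the 756 and 10.7% of the 710, near the background shares of 9.38% and 9.99%. On other scales the number of genes differed and these shares stayed close. With TMM factors, which set libraries to a common level for most genes, 223 genes met the rule, including all 76, and made up 14.9% of genes low in P against 14.4% of all genes with a high A. In the authors' TPM values, which are scaled by transcript length, 40 genes met it, 28 of them among the 76, at 6.76% against 6.19%. The shares lay further apart without both libraries numbered 4, at 9.70% of genes low in P against 5.65% of all, without a level minimum, at 8.41% against 4.98%, and without agat-negative replicate 4, at 9.47% against 6.81%. Nearness of the shares thus depended on the libraries and the level minimum. These scales shift all genes: over the 7569 genes the median A was -0.02 with TMM and -0.26 in TPM, and the median P was -0.36 with TMM and -0.02 in TPM. On the TMM scale all 76 genes kept A above 0 and P below 0. In TPM 75 of 76 had A above 0 and 76 had P below 0, with median A of 0.32 and median P of -1.13.

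**Figure D1:**
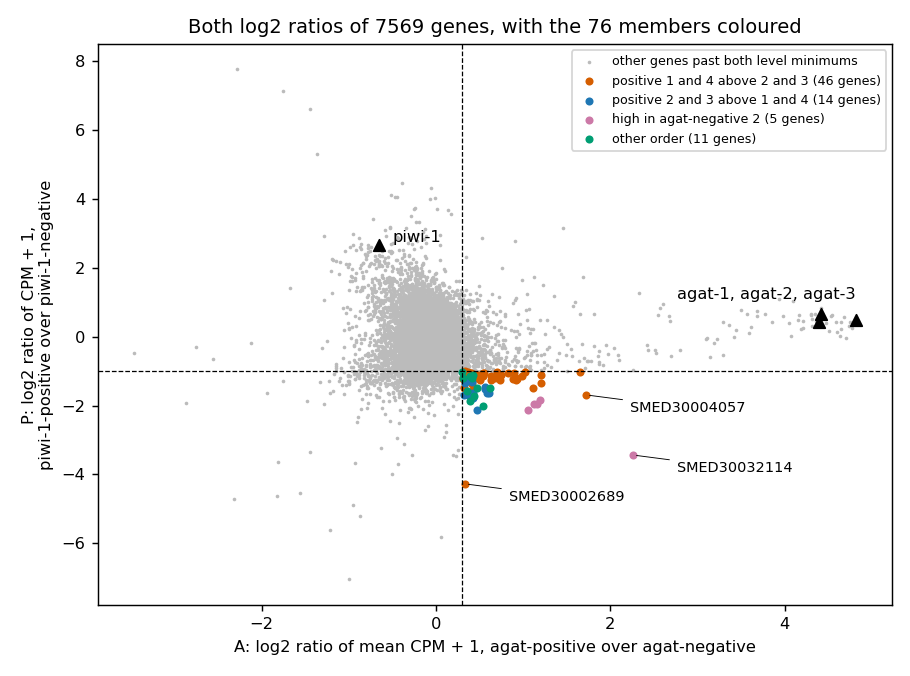
Each point is 1 of the 7569 genes past both level minimums, with A (log2, agat-positive over agat-negative) on the horizontal and P (log2, piwi-1-positive over piwi-1-negative) on the vertical axis, dashed lines at the limits of 0.3 and -1, and triangles for the probe targets. The 76 coloured members crowd against both limits, and SMED30032114, SMED30004057 and SMED30002689 lie away from the rest.

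The 76 genes did not share 1 pattern over the libraries. They were sorted, after their values were seen, by the order of the agat-positive libraries. In 46 genes both positive replicates 1 and 4 were above both replicates 2 and 3 (25.0% of the 7569 genes did so), in 14 genes replicates 2 and 3 were above 1 and 4 (47.4% of all), and 11 genes had another order. The remaining 5 genes stood apart through agat-negative replicate 2. Replicates 1 and 4 are also the libraries with the most agat transcripts, with agat-1 at 1627, 305, 234 and 1564 CPM in positive replicates 1 to 4. Whether the purity of the sort takes part in the pattern of the 46 genes was not tested. Of the 634 genes with a high A that missed the limit on P, 555 (87.5%) had this order, and of the 680 genes with a low P that missed the limit on A, 36 (5.29%) had it.

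**Figure D2:**
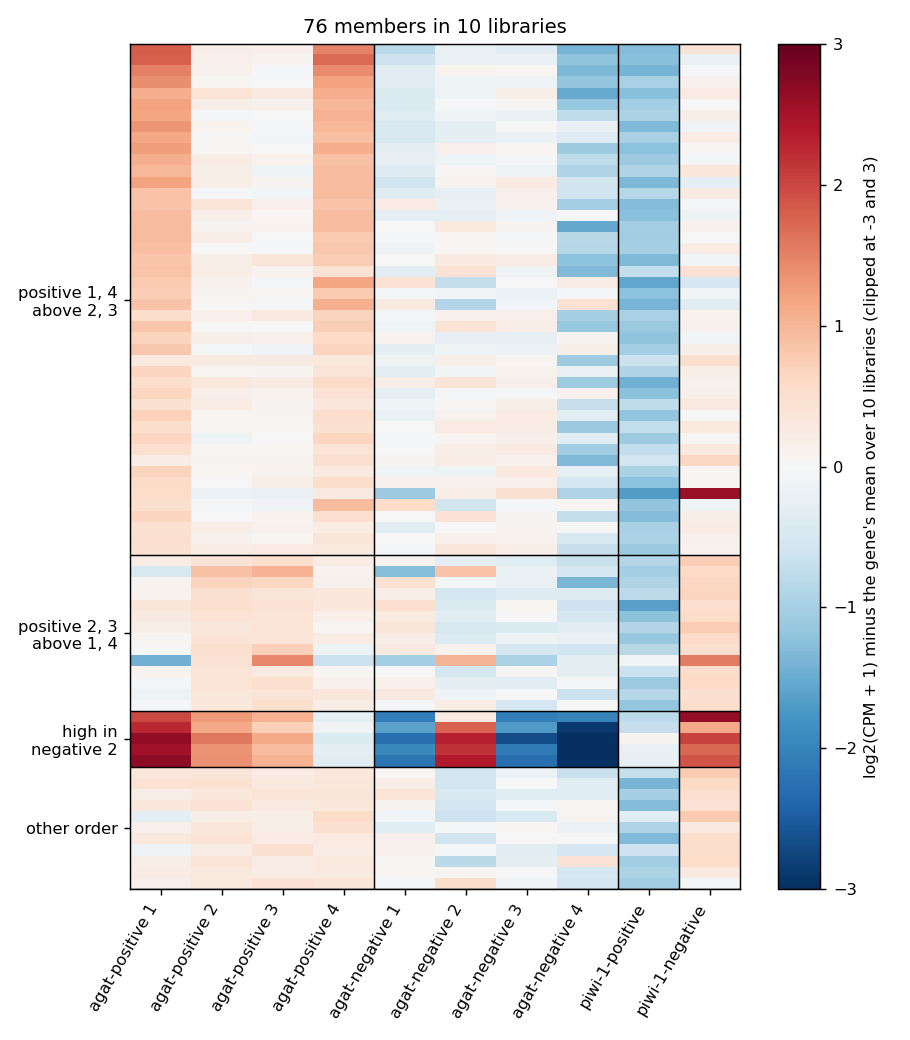
Rows are the 76 genes, grouped by the order of the agat-positive libraries and sorted by A within a group, and columns are the 10 libraries. Colour gives log2(CPM + 1) minus the gene's mean over the libraries. Among the agat-positive columns, the 46 upper genes are highest in replicates 1 and 4. The block of 5 genes is red in agat-negative 2, and the piwi-1-positive column is blue for most genes.

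Among the 46 genes, SMED30004057 had the highest A. It had 208, 67.3, 64.5 and 164.8 CPM in agat-positive replicates 1 to 4, against 32.7, 49.7, 46.2 and 21.6 CPM in agat-negative replicates 1 to 4. All 4 positive libraries lay above all 4 negative ones. The means were 126 ± 72.0 and 37.6 ± 12.9 CPM (SD, n = 4 each), with A of 1.72, an edgeR log2 fold change of 1.92 (SE 0.41) and an edgeR adjusted p of 0.169 over all genes. In the piwi-1 pair it had 23.1 CPM in positive and 76.9 CPM in negative cells, a ratio of 0.301 (95% exact interval 0.278 to 0.326). The level in piwi-1-negative cells lay between the lower and the higher pair of agat-positive libraries. Without agat-positive replicate 1 its A was 1.37, and without agat-negative replicate 4 it was 1.54.

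SMED30004057 and 5 others of the 46 genes had A of 1 or more, from 1.02 to 1.72, with P from -1.69 to -1.02. In these 6 genes the lower of positive replicates 1 and 4 was 1.62 to 2.94 times the higher of replicates 2 and 3. Of the 6, 5 had groups that did not overlap in TMM-scaled CPM, which their choice by a high A favours. This held for 7.53% of the 7569 genes and 52.1% of the 634 genes with a high A that missed the limit on P. Over all 46 genes the mean of replicates 1 and 4 was 1.04 to 3.09 times that of replicates 2 and 3, with a median of 1.67. In 42 of the 46 the mean of positive replicates 2 and 3 was above the mean of the negative libraries, which the choice of genes by A favours.

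A group of 5 genes had a separate pattern: agat-negative replicate 2 was more than 4 times each other agat-negative library. It holds SMED30032114, the gene with the highest A of the set, and SMED30005177, SMED30018686, SMED30014784 and SMED30034869, which were singled out after their values were seen. Of the 7569 genes, 17 (0.225%) showed this. SMED30005177 had 2416, 1146, 850.4 and 289.9 CPM in agat-positive replicates 1 to 4, against 78.7, 1941, 60.0 and 16.0 CPM in agat-negative replicates 1 to 4. The level of negative replicate 2 was thus second only to positive replicate 1, while the other negative libraries lay below every positive one. Its means were 1176 ± 900 and 524 ± 945 CPM (SD, n = 4 each), a difference within the spread of either group, and its A of 1.16 became 4.48 without agat-negative replicate 2.

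The other genes of this group followed SMED30005177 closely. In SMED30018686, SMED30014784 and SMED30034869, negative replicate 2 was 17.4, 10.7 and 25.8 times the highest other negative library, and A went to 3.90, 3.22 and 4.23 without it. Over the 10 libraries the log2 levels of these 3 genes and SMED30005177 had pairwise Pearson correlations of at least 0.982, a description of points that share their libraries. All 4 genes were lower in piwi-1-positive cells, and their P ran from -2.14 in SMED30034869 to -1.84 in SMED30014784.

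SMED30032114 differed from those 4 genes in that its positive libraries stayed mostly above negative replicate 2. It had 172.5, 105.7, 88.6 and 35.1 CPM in agat-positive replicates 1 to 4, against 9.33, 52.1, 9.46 and 9.84 CPM in agat-negative replicates 1 to 4. Only positive replicate 4 lay below negative replicate 2, and all positive libraries lay above the other 3 negative ones. The means were 100.5 ± 56.7 and 20.2 ± 21.3 CPM (SD, n = 4 each), with A of 2.26, an edgeR log2 fold change of 2.48 (SE 0.72) and an edgeR adjusted p of 0.291. Without agat-negative replicate 2, A was 3.27. In the piwi-1 pair it had 24.3 CPM in positive and 272 CPM in negative cells, a ratio of 0.0891 (95% exact interval 0.083 to 0.0956), the second most negative P of the set at -3.43.

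A large share of the reads of the set came from a few abundant genes that were nearly level among the positive libraries. The 5 most abundant members held 51.3% to 61.2% of the set's counts in agat-positive libraries and 45.1% to 72.4% in agat-negative ones, lowest in negative replicate 2. SMED30007813, SMED30019680, SMED30019357 and SMED30002195, the 4 most abundant members, are named after their values were seen. Together they made up 1.56 ± 0.076% of the counts of agat-positive libraries and 1.18 ± 0.272% of those of agat-negative ones (SD, n = 4 each), and 0.540% in piwi-1-positive and 1.81% in piwi-1-negative cells. SMED30007813 had 5165, 5815, 5195 and 5450.3 CPM in agat-positive replicates 1 to 4, against 4608, 2537, 3710.4 and 6062 CPM in agat-negative replicates 1 to 4. Its groups overlapped, since negative replicate 4 was above every positive library, and its A was 0.35. Its P was -1.58, from 2186 CPM in piwi-1-positive and 6530.4 CPM in piwi-1-negative cells.

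The next 3 abundant genes kept more distance between the groups. SMED30019680 lay at 4617 to 5155 CPM in the agat-positive gate and at 2597 to 4239 CPM in the agat-negative gate. SMED30019357 lay at 3191 to 3568 CPM in agat-positive libraries, against 1771 to 2820.5 CPM in agat-negative ones. SMED30002195 lay at 1948 to 2188 CPM in agat-positive libraries, against 1071 to 1831 CPM in agat-negative ones. In these units all 3 had groups that did not overlap (background 3.84%). With TMM scaling this held for SMED30002195 and not for SMED30019680 and SMED30019357 (background 7.53%). In all 3 the lowest negative library was replicate 2, the one in which the group of 5 genes was high. The log2 levels of the 4 abundant genes had pairwise Pearson correlations of 0.839 to 0.997 over the 10 libraries.

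**Figure D3:**
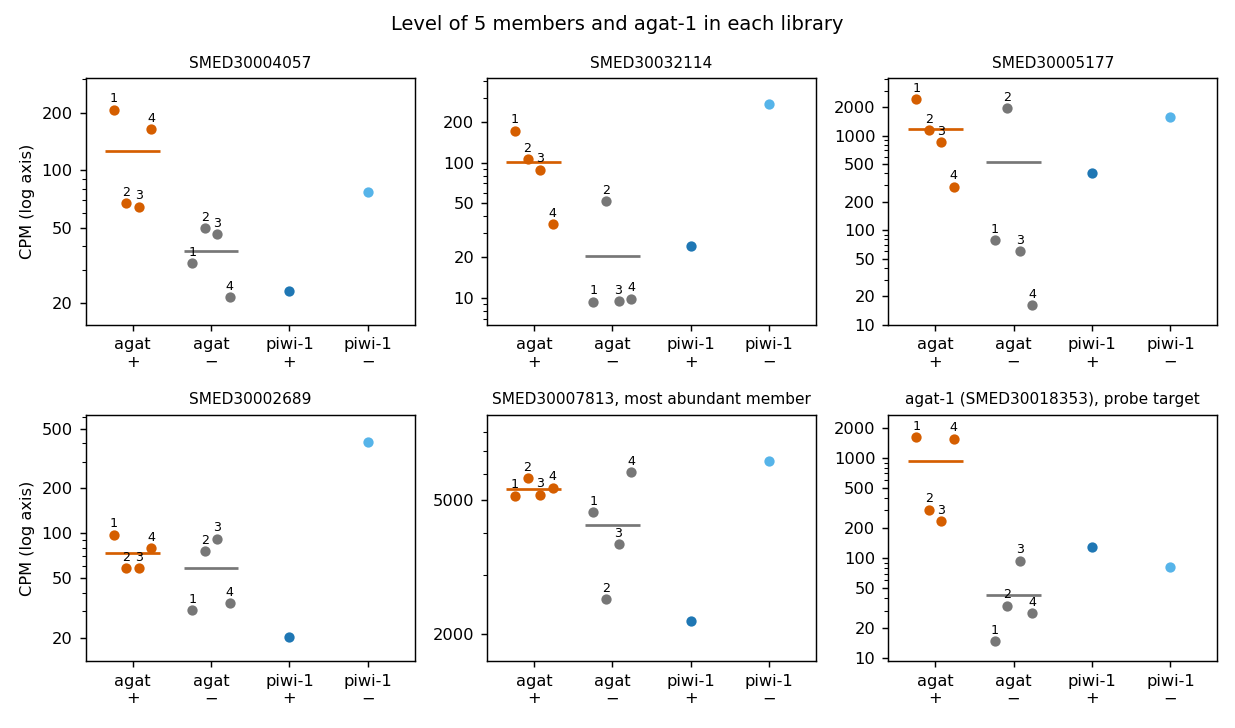
CPM on a log axis in each library for 5 members and for agat-1, with replicate numbers beside the points and a line at the mean of each agat group. SMED30004057 repeats the order of agat-1 among the positive libraries, SMED30032114 and SMED30005177 are high in agat-negative 2, SMED30002689 is highest in piwi-1-negative cells, and SMED30007813 is level among positive libraries.

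SMED30002689 had the most negative P of the set and a small A. It had 97.7, 58.2, 58.0 and 79.8 CPM in agat-positive replicates 1 to 4, against 30.5, 75.8, 92.0 and 34.2 CPM in agat-negative replicates 1 to 4. The groups overlapped, and the means of 73.4 ± 19.2 and 58.1 ± 30.5 CPM (SD, n = 4 each) differed by less than the spread of the negative libraries. Its A of 0.33 was 0.17 without agat-positive replicate 1, 0.29 without agat-positive replicate 4, 0.12 without agat-negative replicate 1, 0.15 without agat-negative replicate 4, 0.64 without agat-negative replicate 3 and 0.13 in TPM, so its place in the set rests on single libraries. In the piwi-1 pair it had 20.1 CPM in positive and 407 CPM in negative cells, a ratio of 0.0494 (95% exact interval 0.0458 to 0.0533). The piwi-1-negative level was above all 8 agat libraries, and the piwi-1-positive level was below all of them.

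Set side by side, the 4 gates had a common order in most of the 76 genes. In 67 genes (88.2%) the piwi-1-positive level was lowest, the mean of agat-negative cells next, and those of piwi-1-negative and agat-positive cells higher, against 10.6% of the 7569 genes, 16.3% of the 680 other genes with a low P and 34.9% of the 634 other genes with a high A. The rule sets the order within each label, and so part of this order. It does not set the order between labels but favours it. A low P goes with a low piwi-1-positive or high piwi-1-negative level, and a high A with a low agat-negative mean. The 680 and the 634 genes each miss 1 limit, so part of their distance from the set is built in as well. The mean of agat-negative cells was above the piwi-1-positive level in 75 of 76 genes (background 62.5%) and in all 680 other genes with a low P. The piwi-1-positive library lay below all 8 agat libraries in 54 of 76 genes (71.1%), against 27.5% of the 7569 genes and 523 of the 680 other genes with a low P (76.9%). The piwi-1-negative level was above the mean of agat-negative cells in 68 of 76 genes (background 35.4%) and in 413 of those 680 (60.7%). The agat-positive mean was above piwi-1-negative cells in 45 of 76 genes (background 56.3%), in 101 of those 680 (14.9%) and in 583 of the 634 other genes with a high A (92.0%). The labels were sorted with different probes and piwi-1 has 1 library per gate, so these orders carry no test.

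By mass the set was a small part of each library. It held 3.28%, 2.91%, 2.70% and 2.82% of assigned counts in agat-positive replicates 1 to 4, against 2.22%, 2.04%, 2.01% and 2.00% in agat-negative replicates 1 to 4. The groups did not overlap, as the choice of genes by A makes likely, and the means were 2.93 ± 0.25% and 2.07 ± 0.10% (SD, n = 4 each). The share was 1.04% in piwi-1-positive and 3.27% in piwi-1-negative cells. Per transcript length, the median level over the set was 44.9 TPM, against 22.7 TPM over the 7569 genes, 30.7 TPM over the 680 and 35.6 TPM over the 634.

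In the deposited table, replicate 4 of each agat gate carries a column name built differently from replicates 1 to 3, and what this marks is not stated. Over replicates 1 to 3 alone, A was above 0 in 75 of 76 genes and at least 0.3 in 55, with a median of 0.42, where 25.2% of the 7569 genes had A above 0. Between the libraries numbered 4, the agat-positive one was higher in 74 of 76 genes, where 57.6% of the 7569 were.

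The near-constant total of the agat-negative libraries hid groups that went opposite ways. The 5 genes high in agat-negative replicate 2 held 0.417% of the counts there, against 0.0220%, 0.0188% and 0.0060% in agat-negative replicates 1, 3 and 4. The 11 genes of another order, which include the 4 abundant ones, held 0.815% in that library, against 1.37%, 1.19% and 1.41% in agat-negative replicates 1, 3 and 4. The 46 genes held 0.868%, 0.556%, 0.539% and 0.835% in agat-positive replicates 1 to 4, against 0.494%, 0.532%, 0.551% and 0.340% in agat-negative replicates 1 to 4. In that sum positive replicate 3 lay below negative replicate 3, so the groups overlapped.

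**Figure D4:**
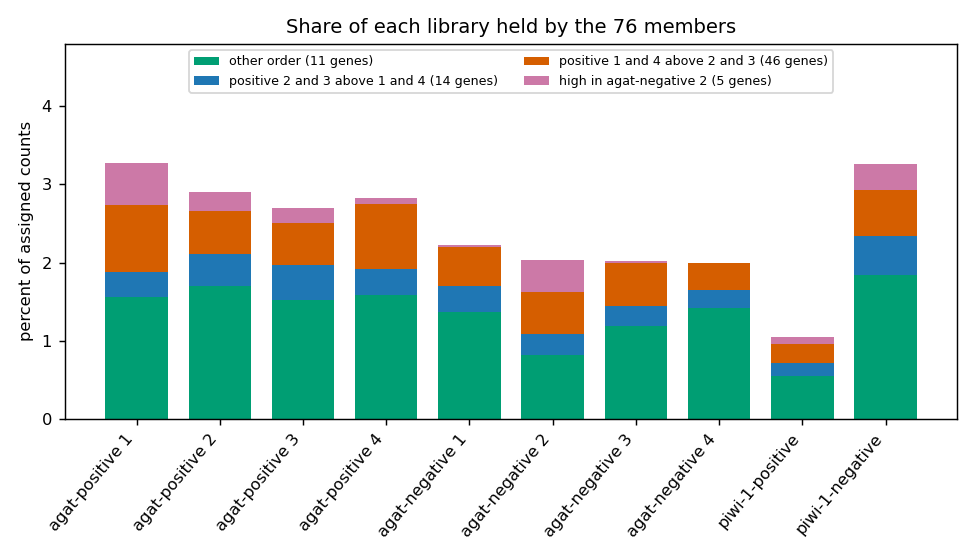
Bars give the percent of assigned counts that the 76 genes held in each library, divided by the order of the agat-positive libraries. Totals run from 2.70% to 3.28% over the agat-positive bars and from 2.00% to 2.22% over the agat-negative bars, and the 5-gene part is visible in agat-negative 2 and nearly absent from the other agat-negative libraries.

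Beside the replicate spread, the agat difference was modest for single genes. In TMM-scaled CPM the groups did not overlap in 31 of 76 genes (40.8%), where 7.53% of the 7569 genes were higher in all positive libraries. In TPM this held for 6 of 76 (7.89%, background 2.07%). Of the 634 other genes with a high A, more did so, 52.1% in TMM-scaled CPM, 36.1% in library-size CPM and 23.7% in TPM. In library-size CPM 22 genes had all 4 positive libraries above every negative one (background 3.84%), 15 genes had 3 of them, 24 genes had 2, and 15 genes had 1 or none. All 76 genes passed the filter of edgeR, which tested 22954 genes. By edgeR at an adjusted p under 0.05, 0 members were higher (0.00871% of all tested genes were called higher), and 0 were lower (0.00% of all), with a lowest adjusted p of 0.167. This fit called 2 of the 22954 genes higher, and did not call agat-1, agat-2 or agat-3. Those probe targets had edgeR log2 fold changes of 4.61, 4.58 and 5.10, with edgeR adjusted p of 0.200, 0.200 and 0.207. An absence of calls is thus not particular to the members. At an unadjusted p under 0.05 edgeR had 59 members higher and 0 lower, against 5.26% of all genes higher. DESeq2 called 12 members higher and 0 lower (1.15% and 0.222% of all genes), 9 of them among the 46 genes above. limma-trend on TPM called 0 of 75, with 13 higher at an unadjusted p under 0.05. The share over all genes was not computed for limma, so its counts are not set against a background here. The median edgeR log2 fold change was 0.61 over the set and -0.06 over all genes. The rule used this contrast, so nothing follows from these counts. The labels call the replicates biological but do not say whether each came from its own sort, so p-values measure the spread between these samples.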

How the data were processed

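The authors deposited a table of counts per gene and a table of TPM values for 10 libraries and 36035 genes. Per the submitters' processing notes, STAR (version 2.7.10b) and RSEM (version 1.3.1) were used. No build, annotation or strand setting is named. The labels of each sample name its column. The 4 rows of the count table that name no gene (22.8% to 36.98% of reads) were left out. Libraries were amplified without molecular identifiers, so intervals cover counting error only.

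The members, gene groups and the order of the libraries were chosen with earlier results of these data known. The members named are those with the 2 highest A and the 2 lowest P, which are 3 genes. Further members are named by their measured pattern or level. The agat groups (4 against 4) were fitted with edgeR 4.0.16 in R 4.3.3 by the two-sided quasi-likelihood test on counts, with TMM factors, filterByExpr and Benjamini-Hochberg adjustment over all genes. DESeq2 1.42.0 and limma 3.58.1, limma on log2(TPM + 1) for genes of at least 1 TPM on average, were alternatives. Scripts were tested on simulated counts. The piwi-1 pair has no replicates, and its ratios carry 95% Clopper-Pearson intervals. Libraries of 1 group differed by a chi-square per gene of 11.8 to 301, so none is a copy of another. The lowest value was that of agat-positive replicates 2 and 3, and the next, 41.4, that of agat-positive replicates 1 and 4. The chi-square cannot show whether libraries came from the same pool or sort.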

Additional observations from a re-analysis of the deposited data

Results flagged for a closer look

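In 28 groups of 4 libraries, 6 values lay far from the other 3, all of them in agat-negative replicate 2 and all from the same 5 genes. By chance about 1 group in 20 holds such a value, or 1.4 of 28. The 5 genes were grouped for their high value in this library, so the 6 cannot be set against that number. They are also related measures of 1 library and are not separate findings. The 5 genes together held 0.417% of the counts of that library, while agat-negative replicates 1, 3 and 4 had 0.0060% to 0.0220%. SMED30005177 stood at 1941 CPM against 16.0 to 78.7 CPM, and SMED30018686 at 1531 against 19.6 to 87.8 CPM. SMED30014784 stood at 349.5 against 12.9 to 32.6 CPM, SMED30034869 at 295 against 1.68 to 11.5 CPM, and SMED30032114 at 52.1 against 9.33 to 9.84 CPM. The same genes differed by 4.91 to 8.33 times between the highest and lowest agat-positive libraries.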

How the results depend on the processing

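The number of genes that met the rule depended most on the scale: 223 with TMM factors, 40 in TPM and 133 without a level minimum, against 76. Leaving out 1 agat library gave 72 to 92 genes, and 43 of the 76 kept A of 0.3 or more in all 8 such sets. The largest loss came without agat-negative replicate 4, where 57 of the 76 remained. The count of members called higher was 0 by edgeR (0.00871% of all genes) and 12 by DESeq2 (1.15%). It was 0 to 1 with 1 library left out, the 1 being SMED30004057 without agat-positive replicate 3. For fits other than these main edgeR and DESeq2 fits, the share of all genes called was not computed. Without both libraries numbered 4 the rule gave 74 genes, 55 of them among the 76. In that setting 0 members were called, and groups did not overlap in 46 members (background 16.4%). Members called lower numbered 0 in every fit. The median log2 fold change was 0.37 to 0.67 over all alternatives, and 0.58 to 0.67 with 1 library left out. Groups did not overlap in 31 members (background 7.53%), in 22 in library-size CPM (3.84%) and in 6 in TPM (2.07%). With 1 library left out it was 32 to 44 members, and the background rose as well, to 8.09% to 15.2%. The median P of -1.23 was -1.47 with TMM factors, -1.13 in TPM and -1.28 with a pseudocount of 0.1. The share of counts was 2.81% to 3.00% in agat-positive and 2.02% to 2.09% in agat-negative libraries with 1 library left out. Without agat-negative replicate 2, an alternative added after seeing the data, 16 genes had A of 1 or more, against 11. With a replicate block edgeR called 0 members and the median log2 fold change was 0.64. Libraries of the same number had correlations of deviations from -0.138 to 0.0776. Of the 8 agat libraries, 2 correlated best with their own number, and both are numbered 4. Such weak correlations cannot show whether libraries of the same number came from the same pool or sort. The median log2 fold change and the median P of the set kept their sign in every alternative run for them. Single genes did not all do so. A was above 0 for 75 of the 76 in TPM, and for 75 in all 8 sets with 1 library left out. The cause of these moves was not tested.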

Other observations

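The pattern of agat-negative replicate 2 was seen in 17 of the 7569 genes past both level minimums. Of these, 5 were members, 9 were among the 634 other genes with a high A (1.42%) and 3 were among the 680 other genes with a low P (0.441%).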
